A study of Schizosaccharomyces pombe with 78 samples.

Results

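The genes described here are 7 recombination repair and checkpoint genes of fission yeast, *Schizosaccharomyces pombe*, listed by name, with earlier results of these data known: *ctp1* (SPCC338.08), *mrc1* (SPAC694.06c), *rad52* (SPAC30D11.10), *rqh1* (SPAC2G11.12), *rad32* (SPAC13C5.07, *mre11* in the RefSeq annotation), *rmi1* (SPAC26A3.03c) and *top3* (SPBC16G5.12c). They are 7 of the 12683 features of the normalized count table, and all 7 were among the 7429 features that passed the filter on low values. RNA was sequenced from 3 strains, each with the temperature-sensitive allele *cdc25-22*, which stops cells before mitosis when they are warmed. Nrm1 carried wild-type Nrm1 tagged with HA, Nrm1-SA the tagged protein whose CDK phosphorylation sites were changed to alanine, and Nrm1-SD the tagged phosphomimetic protein. Each strain was sampled growing asynchronously at 25 °C in minimal medium, and, after 4 h at 36 °C, every 20 min from 0 to 220 min of release at 25 °C. With 2 replicates for each of the 39 conditions there were 78 libraries. Each genotype was represented by a single strain, and no strain without the tag or without *cdc25-22* was analysed here.

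MBF is the transcription factor complex that drives the wave of gene expression at the passage from G1 to S phase in fission yeast, and it binds the element ACGCGT. Nrm1 is a corepressor that binds MBF, and cyclin-dependent kinase phosphorylates it. Recombination repair begins when the Mre11-Rad50-Nbs1 nuclease and its partner Ctp1 resect a DNA break, continues with strand exchange, in which Rad52 takes part, and ends when the joined DNA molecules are taken apart, in part by the helicase Rqh1 with Top3 and Rmi1. Mrc1 is a mediator that rides with the replication fork and activates the checkpoint kinase Cds1 when replication stalls.

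The stretch before the transcript start is shown for the 4 genes in which it held the MBF element or its core. Capitals mark ACGCGT, and its 5-base core ACGCG on either strand, which reads CGCGT on the strand shown and overlaps the longer element. Each run holds the 100 bases before the annotated transcript start, on the gene's strand, from RefSeq assembly ASM294v3.
mrc1 (I:4212389-4212488, minus strand): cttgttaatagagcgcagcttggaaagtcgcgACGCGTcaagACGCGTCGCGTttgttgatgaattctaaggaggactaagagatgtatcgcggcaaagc
ctp1 (III:1360233-1360332, minus strand): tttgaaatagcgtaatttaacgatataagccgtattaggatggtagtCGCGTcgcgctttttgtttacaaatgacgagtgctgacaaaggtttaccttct
rmi1 (I:3337595-3337694, minus strand): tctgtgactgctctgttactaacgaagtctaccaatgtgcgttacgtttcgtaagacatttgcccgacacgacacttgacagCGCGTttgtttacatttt
rad32 (I:436079-436178, plus strand): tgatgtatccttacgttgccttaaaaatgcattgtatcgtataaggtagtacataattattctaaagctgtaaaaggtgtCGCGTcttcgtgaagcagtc
*mrc1* had ACGCGT 68 and 58 bases before the start and a further core at 52. *ctp1* had the core alone at 53 bases, *rmi1* at 18 and *rad32* at 20. The windows of *rad52*, *rqh1* and *top3* held none of these letters. Over the 5112 protein-coding genes with a window of this length, 1.47% held ACGCGT, 0.196% held it at least 2 times and 5.44% held the core on either strand. The annotated start was the start codon itself in 11.7% of these genes. The 4 genes with a core in the window were also the 4 whose positive amplitude in Nrm1 passed the test. *top3*, without a core, had an amplitude of 0.09 in Nrm1, which did not pass. Whether a core and a positive amplitude go together over all genes was not tested. A match of letters is a description, not a test of binding.

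The genes lie on chromosome I (*mrc1* at 4209203-4212388, *rad52* at 1099489-1101563, *rqh1* at 831937-836094, *rad32* at 436179-439980 and *rmi1* at 3334942-3337594), chromosome II (*top3* at 4233868-4236269) and chromosome III (*ctp1* at 1358737-1360232) of ASM294v3. Of the 7, *rqh1* alone overlaps no other feature of the table. The kit kept the strand, but the setting used for counting is not given in the sources used here. *ctp1* and *mrc1* lie wholly inside long noncoding RNAs of the opposite strand, which had mean normalized counts of 75.0 (SPNCRNA.1189) and 31.7 (SPNCRNA.972) in the peak windows of Nrm1 and did not pass the test of amplitude (adjusted p = 0.24 and 0.92, limma). *rmi1* lies wholly opposite *myh1*, a DNA glycosylase gene, with 269 in the peak windows and 293 in the trough of Nrm1. The amplitude of *myh1* in Nrm1 was −0.13 and passed the test (adjusted p = 0.064, limma). SPNCRNA.711 lies opposite 75.8% of *rad52*, with 56.8 in the peak windows of Nrm1, 90.1 for Nrm1-SA and 54.7 for Nrm1-SD. Its part in the values of *rad52* was not tested.

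Reads on annotated features numbered from 2685381 to 10469416 per library (median 5818956), and the fewest reads behind any member's value were 36 (*rmi1*). At 140 min, both libraries of Nrm1-SA agreed within sampling noise (chi-square per degree of freedom of 0.392, against 1.77 to 16.1 in the other 38 pairs), so they were counted as 1 sample. Nothing in the labels says that the time points with the same replicate number came from a single culture, and they are called a replicate series here. The p-values measure the spread between these libraries. How well each strain was synchronised was read from 2 sets of genes that peak in every cycle. The mean log2 level of 18 mitosis and cytokinesis genes had a fitted peak-to-trough of 2.39 ± 0.03 on the log2 scale in Nrm1 (SD, n = 2 series), 1.77 ± 0.03 for Nrm1-SA and 2.24 ± 0.23 for Nrm1-SD. For 9 histone genes it was 2.43 ± 0.12, 1.45 ± 0.03 and 1.92 ± 0.08. Both sets were flatter in each series of Nrm1-SA than in either series of Nrm1, and so were the histone genes in Nrm1-SD. Their part in the differences between strains was not tested, and in these bulk samples fewer cells expressing a gene and less RNA per cell cannot be told apart.

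The amplitude of a gene is the mean log2(normalized count + 1) at 60, 80, 180 and 200 min, the peak windows, minus the mean at 120 and 140 min, the trough. It was positive in Nrm1 past an adjusted p of 0.1 (limma) in 4 of the 7 genes, *ctp1*, *rad32*, *rmi1* and *mrc1*, and 23.6% of all features were called that way. It was negative in *rad52* and *rqh1*, against 24.6% of all features. Of the 4 genes, 3 had a smaller amplitude in both mutants: *ctp1*, *mrc1* and *rmi1*. In Nrm1-SA *rad32* was called as well, so 4 of 7 genes had a smaller one there, where 3.47% of features did, and in Nrm1-SD 3 of 7, where 1.04% did. For none of the 7 did the test of Nrm1-SD against Nrm1-SA pass (limma, 2.23% of features called; 0 members at an unadjusted p under 0.05, and 0 by edgeR and by DESeq2). Their differences ran from −0.18 (*rqh1*) to 0.09 on the log2 scale, with SEs of 0.08 to 0.17. Both mutants were set against the same Nrm1 libraries.

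**Figure D1:**
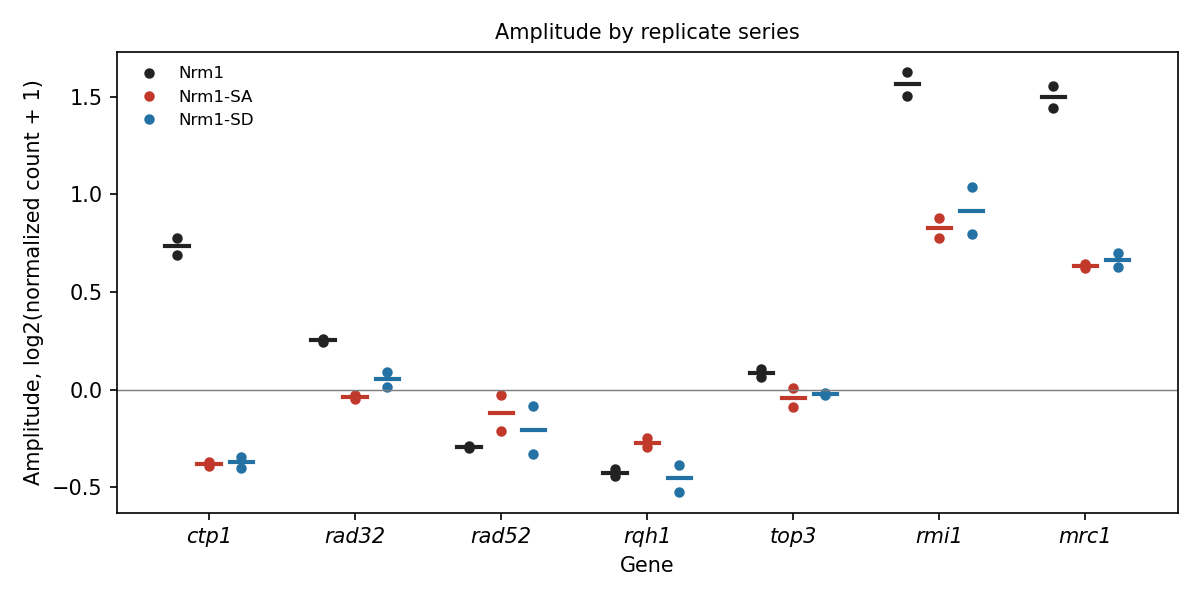
Amplitude of the 7 genes in log2(normalized count + 1) by strain, with a point for each of the 2 replicate series and a bar at their mean. *ctp1* lies above 0 in Nrm1 and below 0 in both mutants, and the mutant points of *mrc1* and *rmi1* lie below those of Nrm1.

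*ctp1* encodes the fission yeast counterpart of CtIP and Sae2, which starts resection together with the Mre11 nuclease. It was lower in both mutants than in Nrm1 around each peak and higher than in Nrm1 around the trough. In Nrm1 it read 499 and 467 normalized counts at 40 min, 651 and 589.7 at 60 min, 421 and 389 at 120 min and 829 and 801 at 180 min. In Nrm1-SA it read 258 and 218 at 40 min, 251 and 259.7 at 60 min, 493 and 481 at 120 min and 401 and 400.2 at 180 min. In Nrm1-SD the same times gave 252 and 285, then 292 and 298, then 529.8 and 529.7, and at last 454 and 479.7. The replicates of both mutants lay below those of Nrm1 at 40, 60, 80, 160, 180 and 200 min and above them at 100, 120 and 140 min. At 140 min Nrm1-SA had 1 sample, the mean of its near-identical pair. At 60 min the mean was 0.411 times that of Nrm1 in Nrm1-SA and 0.475 times in Nrm1-SD, while at 120 min it was 1.20 and 1.31 times.

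The amplitudes of *ctp1* in the 2 series were 0.69 and 0.78 in Nrm1, −0.39 and −0.37 for Nrm1-SA and −0.40 and −0.34 for Nrm1-SD. The sign was thus positive in Nrm1 and negative in both mutants. Relative to Nrm1, the amplitude was −1.11 on the log2 scale in Nrm1-SA (SE 0.08, adjusted p = 3.8e-16) and −1.11 in Nrm1-SD (SE 0.07, adjusted p = 3.2e-17). Fitted with its phase free, a 120 min wave peaked at 65.9 min in Nrm1, 114 min for Nrm1-SA and 118 min for Nrm1-SD, with peak-to-troughs of 0.74, 0.56 and 0.68. The negative amplitude in Nrm1-SD was −0.65 with the peak windows at 60 and 80 min and −0.09 with those at 180 and 200 min, which did not pass the test (adjusted p = 0.231). In Nrm1-SA too the first cycle lay further below the trough. Its means were 255 and 357 at 60 and 80 min and 401 and 422 at 180 and 200 min, against 487 and 432 at 120 and 140 min.

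**Figure D2:**
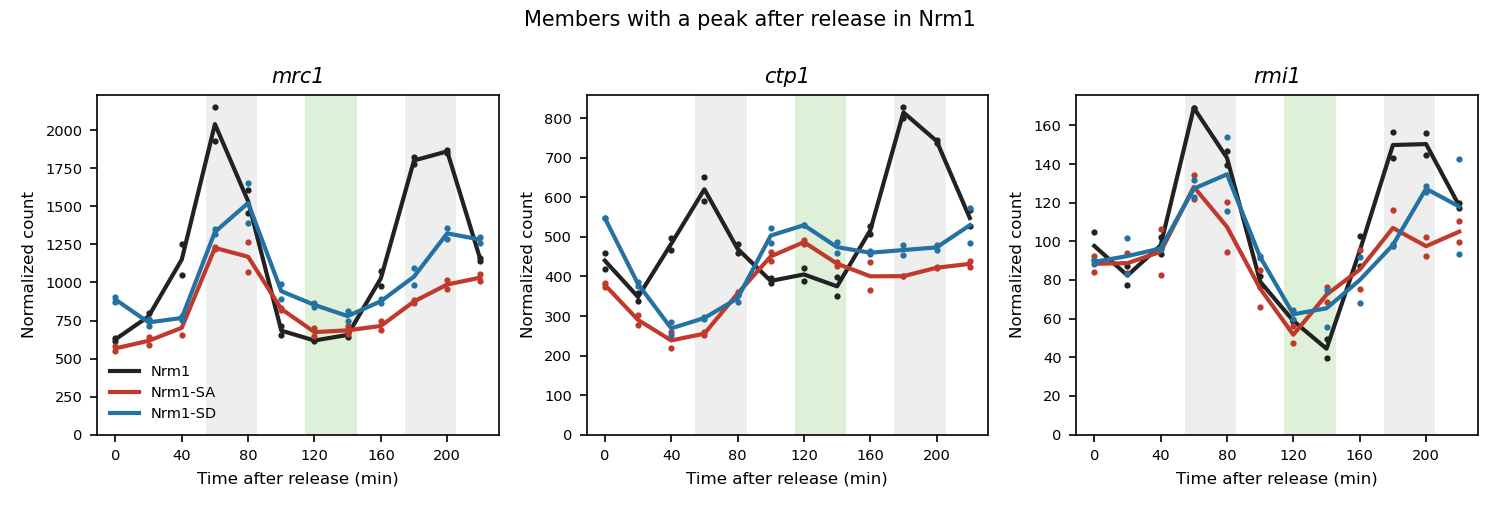
Normalized counts of *mrc1*, *ctp1* and *rmi1* against time after release, with points for the replicates and lines through their means, and the peak windows shaded grey and the trough green. *ctp1* rose to 621 at 60 min in Nrm1, where it stood at 255 for Nrm1-SA and 295 for Nrm1-SD.

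*rad32* encodes the nuclease of the Mre11-Rad50-Nbs1 complex, the partner of Ctp1. It was high at the block and early in release in all 3 strains. In Nrm1 it read 510.0 and 569 at 0 min, 553 and 565 at 60 min, 435 and 379.6 at 120 min and 511 and 519.7 at 180 min. In Nrm1-SA the values at 60 min were 439.8 and 454, below both replicates of Nrm1, and in Nrm1-SD they were 502 and 521, also below. Its amplitudes were 0.26 and 0.25 in the 2 series of Nrm1, −0.05 and −0.03 for Nrm1-SA and 0.09 and 0.02 for Nrm1-SD. The difference from Nrm1 was −0.29 (SE 0.09, adjusted p = 0.043) in Nrm1-SA, and the call was lost when any single replicate of Nrm1 or Nrm1-SA was left out (adjusted p between 0.116 and 0.206). In Nrm1-SD it was −0.20 (SE 0.08, adjusted p = 0.4). In asynchronous culture it read 310.3 and 356 in Nrm1, lower than at the block.

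*rad52*, whose product anneals single strands of DNA, had no positive amplitude called in any strain. In Nrm1 it read 124 and 113 at 60 min and 182 and 196 at 120 min, higher at the trough time in both replicates. In the second cycle it read 169 and 151 at 180 min and 145 and 196 at 200 min, which overlapped the trough values. Its amplitude was −0.29 (SE 0.11, adjusted p = 0.021) in Nrm1, a call lost without either replicate of Nrm1 (adjusted p = 0.124 and 0.147). With the second cycle alone it was −0.12 and did not pass (adjusted p = 0.47). The amplitude was 0.18 (SE 0.16, adjusted p = 0.66) relative to Nrm1 in Nrm1-SA and 0.09 (SE 0.15, adjusted p = 0.99) in Nrm1-SD. At the peak windows *rad52* was higher in Nrm1-SA than in Nrm1 by 0.18 (SE 0.09, adjusted p = 0.091), the only one of the 7 to pass the test in that direction, against 22.3% of features. That call was lost under 8 of its alternatives.

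*rmi1* and *top3* encode the partners of the helicase Rqh1 in the complex that dissolves double Holliday junctions, and the 3 genes followed different courses. In Nrm1 *rmi1* read 169 and 169 normalized counts at 60 min, 58.9 and 58.7 at 120 min, 49.5 and 39.4 at 140 min and 157 and 143 at 180 min. In Nrm1-SA it read 134 and 122 at 60 min and 116 and 97.4 at 180 min. In Nrm1-SD it read 123 and 131 at 60 min and 97.6 and 98.6 at 180 min. The replicates of both mutants lay below those of Nrm1 at 60 and 180 min. At 140 min the replicates of Nrm1-SD lay above them, and so did the single Nrm1-SA sample (72.4). At 120 min, the other trough time, the replicates of Nrm1-SA (56.1 and 47.2) lay below those of Nrm1, and those of Nrm1-SD (64.4 and 60.1) above. Its amplitudes were 1.50 and 1.62 in the 2 series of Nrm1, 0.88 and 0.78 for Nrm1-SA and 1.04 and 0.80 for Nrm1-SD. A positive amplitude was called in both mutants (adjusted p = 6.8e-07 and 7e-10), and it was −0.74 (SE 0.17, adjusted p = 0.0029) in Nrm1-SA and −0.65 (SE 0.15, adjusted p = 0.013) in Nrm1-SD relative to Nrm1. With the trough read at 120 min alone these were −0.29 and −0.42, and neither passed the test (adjusted p = 0.603 and 0.747). Without Nrm1 replicate 2 the calls were lost as well (adjusted p = 0.15 and 0.538), and in Nrm1-SD also without Nrm1 replicate 1 (0.166), without Nrm1-SD replicate 2 (0.142) and in the first cycle alone (0.154).

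*rqh1* was high where *rmi1* was low. In Nrm1 it read 487 and 430.4 at 80 min, 767 and 701 at 140 min and 556 and 546 at 200 min. In Nrm1-SA the 3 times gave 509 and 401, then 654 (the mean of its near-identical pair), and 579.6 and 546, and in Nrm1-SD 415 and 468, then 855 and 684, and 508 and 495. The order of the times was the same in the 3 strains. The amplitude was −0.42 (SE 0.06, adjusted p = 1.3e-07) in Nrm1, −0.27 (SE 0.07, adjusted p = 0.0033) in Nrm1-SA and −0.45 (SE 0.06, adjusted p = 3.3e-08) in Nrm1-SD, and the fitted wave peaked at 25.2, 26.6 and 27.7 min. The difference from Nrm1 did not pass the test in either mutant: 0.15 (SE 0.09, adjusted p = 0.45) in Nrm1-SA and −0.03 (SE 0.09, adjusted p = 1) in Nrm1-SD. *top3* held between 211 and 376 in all released libraries of Nrm1, 220 and 347 for Nrm1-SA and 211 and 362 for Nrm1-SD, and its amplitude did not pass the test in any strain (adjusted p = 0.41, 0.81 and 0.86). With single cycles 2 calls appeared for *top3*, an amplitude of 0.24 in Nrm1 with the first cycle alone (adjusted p = 0.0226) and of −0.21 in Nrm1-SD with the second (adjusted p = 0.0611).

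**Figure D3:**
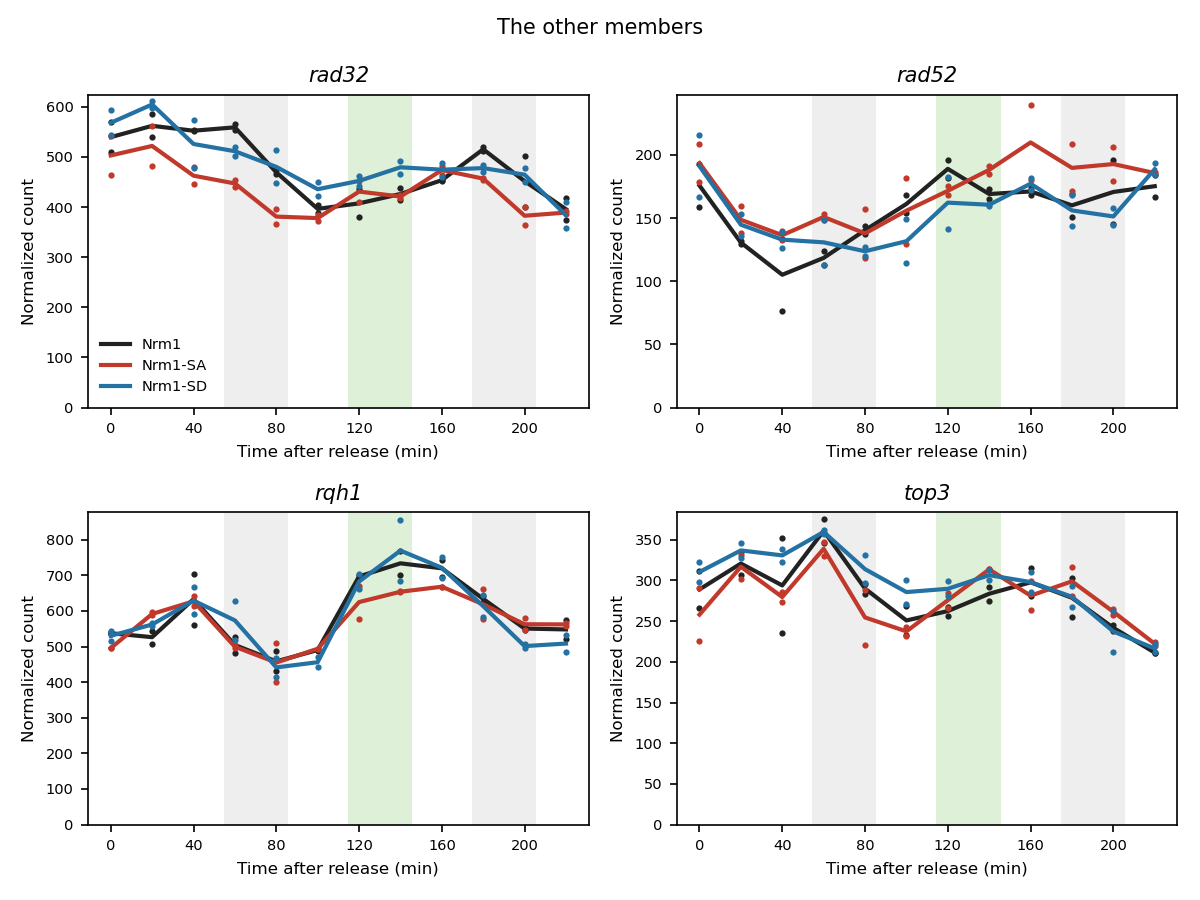
Normalized counts of *rad32*, *rad52*, *rqh1* and *top3* against time after release, drawn as for the genes with a peak. The courses of the 3 strains lie close together in *rqh1* and *top3*, and *rad32* runs lower at 60 min in Nrm1-SA (447) than in Nrm1 (559).

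*mrc1* encodes the mediator of the replication checkpoint. In Nrm1 it read 617 and 635 at 0 min, 2153 and 1929.8 at 60 min, 621 and 616 at 120 min and 1854 and 1869.7 at 200 min. In Nrm1-SA it read 584 and 550.2 at 0 min, 1236 and 1219.5 at 60 min, 702 and 646 at 120 min and 959.8 and 1014 at 200 min. In Nrm1-SD these times gave 904 and 872, then 1317 and 1349, then 839 and 865, and at last 1358 and 1289. The mean at 60 min was 0.601 times that of Nrm1 in Nrm1-SA and 0.653 times in Nrm1-SD, and the peak of Nrm1-SD came at 80 min in both series, where it reached 1652 and 1394 and spanned the replicates of Nrm1 (1608 and 1460.0). The mean of the peak windows was 1809.9 ± 71.1 in Nrm1 (SD, n = 2 series), 1065 ± 25.5 for Nrm1-SA and 1304 ± 72.5 for Nrm1-SD. The trough mean was 637 ± 9.97 in Nrm1, 679.6 ± 19.6 for Nrm1-SA and 816 ± 13.9 for Nrm1-SD. *mrc1* kept a positive amplitude in both mutants, with 0.62 and 0.64 in the 2 series of Nrm1-SA and 0.70 and 0.63 in Nrm1-SD, against 1.55 and 1.44 in Nrm1. The differences from Nrm1 were −0.86 (SE 0.08, adjusted p = 5.4e-12) and −0.83 (SE 0.07, adjusted p = 1.5e-12).

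A positive amplitude was called in 2 of the 7 genes in each mutant, *mrc1* and *rmi1*, against 14.7% of features for Nrm1-SA and 23.1% for Nrm1-SD. A negative one was called in *ctp1* and *rqh1* in each, against 15.6% and 23.2%. The negative call of *rqh1* in Nrm1-SA was lost in the second cycle alone (adjusted p = 0.328) and with the peak windows at 40, 60, 180 and 200 min (0.113). A 120 min wave whose peak-to-trough reached 1 log2 unit was called in *mrc1* (1.66) and *rmi1* (1.48) in Nrm1, where 8.28% of features were. In the mutants 0 of the 7 genes were called, against 3.97% for Nrm1-SA and 7.19% for Nrm1-SD. *mrc1* had 0.91 and 0.89 there, and *rmi1* 0.75 and 0.92, under that minimum. With no minimum on the peak-to-trough, 7 of the 7 genes had a wave in Nrm1, where 56.3% of features did, and 6 in each mutant, against 39.0% and 45.0%. The exact permutation test of amplitudes over 2 series against 2 cannot go below p = 0.333. It could therefore pass no threshold used here, and nothing was read from it.

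The levels behind the amplitudes were compared at the peak windows, in the trough and at the block. At the peak windows *ctp1*, *mrc1*, *rmi1* and *rad32* were lower in Nrm1-SA, 4 of 7 genes where 21.8% of features were lower, and the first 3 were lower in Nrm1-SD, where 3.73% were. *ctp1* stood at 0.544 and 0.598 times the level of Nrm1, and *mrc1* at 0.586 and 0.717 times. *rmi1* stood at 0.716 and 0.791 times, on the log2(normalized count + 1) scale. In Nrm1-SD the call of *rmi1* was lost in the first cycle alone (adjusted p = 0.471) and without either replicate of Nrm1 (0.237 and 0.159). In the trough the direction was the other one. *ctp1* rose by 0.24 (SE 0.07, adjusted p = 0.0077) in Nrm1-SA, the only gene of the 7 to do so, where 12.2% of features rose, and the call was lost without Nrm1 replicate 2 (adjusted p = 0.204). In Nrm1-SD *ctp1* and *mrc1* rose, 2 of 7 genes where 1.16% of features did, by 0.36 and 0.36 on the log2 scale (adjusted p = 2.8e-05 and 5.6e-05).

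**Figure D4:**
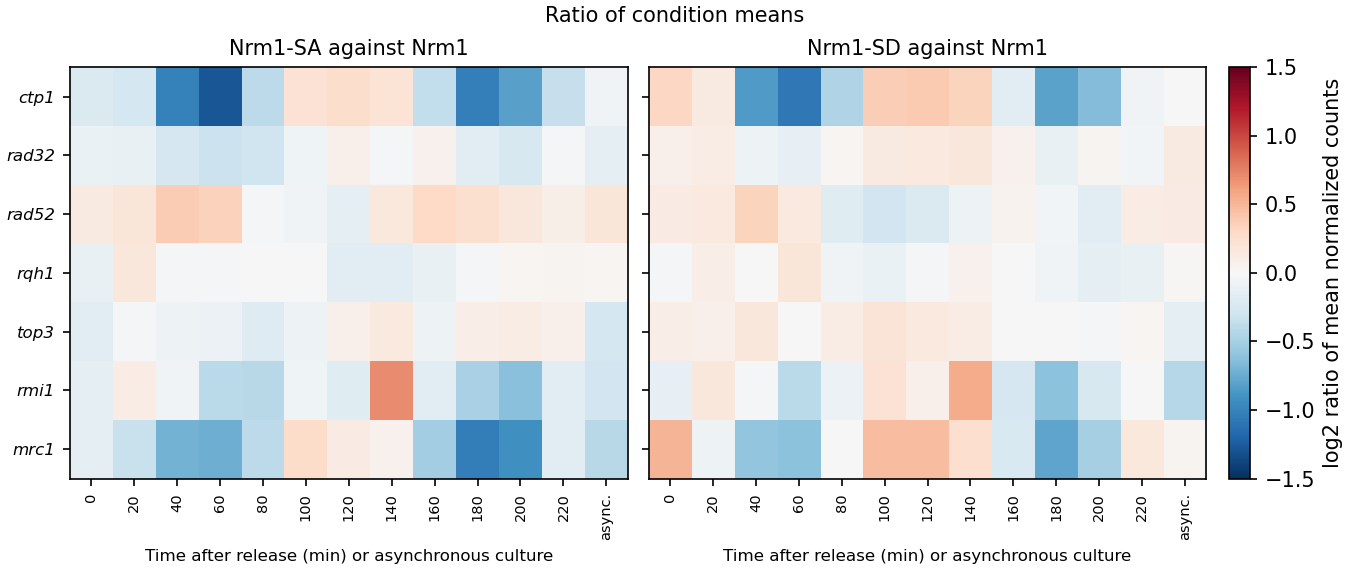
Log2 ratio of the mean normalized count of Nrm1-SA (left) and Nrm1-SD (right) to that of Nrm1, for the 7 genes at each time after release and in asynchronous culture. *ctp1* and *mrc1* are below Nrm1 at 60 and 180 min and above it at 120 min in both mutants.

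At the block, 0 min, the mutants were compared before any release. In Nrm1-SA 0 of the 7 genes passed the test against Nrm1 (limma, 4.52% of features called in either direction; 1 member at an unadjusted p under 0.05, *ctp1*, and 0 by edgeR and by DESeq2). In Nrm1-SD *ctp1* and *mrc1* were higher than in Nrm1, 2 of 7 genes where 1.05% of features were. *mrc1* read 617 and 635 in Nrm1, 584 and 550.2 for Nrm1-SA and 904 and 872 for Nrm1-SD. *ctp1* read 419.9 and 460.4 in Nrm1, against 384 and 374 for Nrm1-SA and 548 and 548 for Nrm1-SD. The difference of Nrm1-SA from Nrm1 was −0.21 for *ctp1* (adjusted p = 0.195, limma) and −0.14 for *mrc1* (0.501), and neither passed. *mrc1* was 0.50 (SE 0.09, adjusted p = 7.9e-05) higher in Nrm1-SD than in Nrm1, and *ctp1* 0.32 (SE 0.08, adjusted p = 0.034), a call lost without Nrm1 replicate 1 (adjusted p = 0.35) or either replicate of Nrm1-SD (0.181 and 0.108). Set against each other, Nrm1-SD was higher than Nrm1-SA in 2 of 7 genes, where 4.58% of features were higher. The difference was 0.53 (SE 0.08, adjusted p = 8.7e-06) for *ctp1* and 0.65 (SE 0.09, adjusted p = 1.2e-07) for *mrc1*.

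Such direct differences between the mutants were also called at the peak windows in *ctp1*, *mrc1*, *rad32* and *rad52*, 4 of 7 genes where 43.5% of features were called in either direction. In the trough *mrc1* was called, against 21.3% of features, and *rqh1* was called under some alternatives, by edgeR and with TMM scaling among them (adjusted p = 0.0811 and 0.0966, against 0.13 by limma). The mutants also differed in asynchronous culture in *mrc1* and *rad32*, against 8.60%. That call of *rad32* was lost by DESeq2 (adjusted p = 0.164) and in every fit that left out a replicate of either mutant. *rad52* was lower in Nrm1-SD at the peak windows, with a difference of −0.25 on the log2 scale, and the others were higher in Nrm1-SD.

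In asynchronous culture *mrc1* alone of the 7 was lower in Nrm1-SA than in Nrm1, where 5.07% of features were lower. It read 757 and 909.9 in Nrm1, 638 and 615 for Nrm1-SA and 802 and 917 for Nrm1-SD, a difference of −0.40 (SE 0.09, adjusted p = 0.00087) for Nrm1-SA. It was called by edgeR and by DESeq2 too, and lost without Nrm1 replicate 2 (adjusted p = 0.209), the library with the fewest reads. *ctp1*, whose course changed after release, had an asynchronous difference of −0.05 (SE 0.08, adjusted p = 0.79) in Nrm1-SA. In Nrm1-SD 0 of the 7 genes passed the test (limma, 2.40% of features called in either direction; 1 member, *rmi1*, at an unadjusted p under 0.05, and 0 by edgeR and by DESeq2). Per kilobase of annotated transcript, the asynchronous levels in Nrm1 ran from *ctp1* (274 ± 34.9 normalized counts per kb, SD, n = 2) through *mrc1* (262 ± 34.0), *rqh1* (129 ± 13.7), *top3* (118 ± 19.9), *rad52* (94.9 ± 0.336) and *rad32* (92.6 ± 8.89) to *rmi1* (36.4 ± 0.894). *ctp1* and *mrc1*, *rqh1* and *top3*, and *rad52* and *rad32* did not differ beyond their spread.

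Over the means of the 39 conditions, which share strains and time points, the protein-coding gene with the course most like *mrc1* was *cdc22*, a ribonucleotide reductase subunit (Pearson r of log2 values 0.94), followed by *ssb1*, a subunit of replication protein A (0.94). *ctp1* ran most like *psm3* (0.74), a cohesin subunit, and *cdc31* (0.72). *rmi1* was most like SPBC31F10.17c (0.93) and *imp2* (0.91), a cytokinesis gene, and *rad32* like *mcp4* (0.88) and *tpz1* (0.88). *rad52* was most like *tcb3* (0.93) and *end4* (0.92), *rqh1* like SPAC1805.14 (0.91) and *trm732* (0.86), and *top3* like *bmt5* and *fft1* (0.78 each). Among the 7, *mrc1* and *rmi1* had r = 0.81 and *rqh1* and *rmi1* −0.53. As reference values, the amplitude of *cdc18*, a replication initiation gene, was 1.54 in Nrm1, −0.03 for Nrm1-SA and 0.11 for Nrm1-SD, and that of *cdc22* was 2.35, 0.57 and 0.81.

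The rest of the pathway was read from 43 other genes in 4 lists, all of which passed the filter. In Nrm1 a positive amplitude was called in 8 of the 43 and a negative one in 17, against 23.6% and 24.6% of all features, with a median of −0.13 beside −0.00103 over all features. A smaller amplitude was called in 5 of the 43 in Nrm1-SA, against 3.47% of all features, with a median difference of 0.03 beside −0.00189 over all features, and in 3 of the 43 in Nrm1-SD, against 1.04%, with 0.01 beside 0.00213. By list, the positive calls in Nrm1 numbered 0 of 5 for end resection, 3 of 13 for strand exchange, 3 of 10 for joint molecule nucleases and fork repair, and 2 of 15 for checkpoint sensors, mediators and kinases, beside the 23.6% of all features. An amplitude above that of Nrm1 was called in 3 of the 43 for Nrm1-SA, where 2.57% of features were, and in 0 for Nrm1-SD (limma, 0.444% of features; 3 of the 43 at an unadjusted p under 0.05, and 0 by edgeR and by DESeq2). The 3, named after their values were seen, had negative amplitudes in Nrm1 that were less negative in Nrm1-SA: *cds1*, the checkpoint kinase that Mrc1 helps to activate (−0.88 and −0.52, adjusted p of the difference 0.023), *crb2*, a mediator of the DNA damage checkpoint (−0.58 and −0.26, adjusted p of the difference 0.044), and *pol4*, a DNA polymerase (−1.92 and −0.49, adjusted p of the difference 0.009). *pol4* had low counts, with means of 9.79 in the peak windows and 33.9 in the trough of Nrm1.

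The 6 genes described next had the largest positive amplitudes in Nrm1 among those that passed the test. The same Nrm1 values enter the differences, which favours a smaller amplitude in the mutants, and the p-values do not allow for this choice. Of the 6, *rti1*, a homologue of *rad52*, had 0.92 in Nrm1, −0.25 for Nrm1-SA and −0.25 for Nrm1-SD (adjusted p of the differences 0.027 and 0.036, limma). Its mean was 27.5 normalized counts in the peak windows of Nrm1. *pfh1*, a helicase of the replication fork, had 0.64, 0.05 and 0.18 (5.8e-09 and 5e-07). *mus81*, a nuclease for joint molecules, had 0.87, 0.53 and 0.72, with a smaller amplitude called for Nrm1-SA (0.0044) and not for Nrm1-SD (0.6). *rdh54*, a Rad54-like translocase, had 0.26, −0.12 and 0.30, called for Nrm1-SA (0.093) and not for Nrm1-SD. *sfr1*, of the strand exchange list, had 0.51, 0.19 and 0.27 and *mdb1*, a mediator that binds phosphorylated histone H2A, 0.43, 0.32 and 0.48, and for neither did a difference pass the test.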

How the data were processed

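RNA was measured in 78 libraries of 3 strains, grouped by their labels into 39 conditions of 2 replicates. The deposited values are a signal per feature: read counts that the authors divided by each library's DESeq2 size factor, after alignment with STAR and counting with HTSeq. The labels name the build ASM294v2 and the tools FastQC and Trimmomatic. The reads behind the values came out whole for 100% of values to within 0.01 reads. Replicates were not pooled, and columns that belong to no sample numbered 0.

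The members and gene lists were chosen with earlier results of these data known, and the tests of Nrm1-SD against Nrm1-SA at the peak windows, trough, block and in asynchronous culture were added after the data were seen. On log2(normalized count + 1), limma 3.58.1 in R 4.3.3 gave the main test, with its variance trend, over the 7429 features whose mean reached 10. The fit had 77 libraries, a coefficient per condition and no term for the replicate series, so time points of a series counted as independent. The pair counted as 1 sample entered as its mean, where the design as first written had 78 libraries. P-values were adjusted over all features (Benjamini-Hochberg) and read at 0.1, the level the study used. Waves were fitted per strain with a linear trend and a period of 120 min. The 7 members were described in full, 1 further gene of the group is not reported here, and other genes were named by the 6 largest positive amplitudes among those past the test and, for each member, by the 2 highest correlations. Alternatives were edgeR 4.0.16 and DESeq2 1.42.0 on recovered reads, another pseudocount (5), filter, scaling, threshold (0.05), windows and period (140 min), a replicate block and leaving out each replicate. The tests were checked on simulated data. Sequences were read from RefSeq ASM294v3 by systematic ID, which 12602 features matched, and its coordinates were not compared with the build of the alignment. Tables used Python 3.11.15, numpy 2.4.6, pandas 2.3.3 and scipy 1.17.1, and plots matplotlib 3.10.9.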

Additional observations from a re-analysis of the deposited data

Results flagged for a closer look

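Nrm1-SD and Nrm1-SA were set against the same Nrm1 libraries, and a direct test of Nrm1-SD minus Nrm1-SA (limma, adjusted p under 0.1, chosen after the data were seen) passed for these values, all on the log2 scale. At the block it was 0.53 for *ctp1* and 0.65 for *mrc1*. At the peak windows it was 0.14 for *ctp1*, 0.29 for *mrc1*, 0.22 for *rad32* and −0.25 for *rad52*. In the trough it was 0.26 for *mrc1*, and in asynchronous culture 0.45 for *mrc1* and 0.29 for *rad32*. The difference of *rad32* in asynchronous culture failed the test in every fit that left out a replicate of either mutant, where it ran from 0.23 to 0.35. It also failed by DESeq2 (adjusted p = 0.164). The difference of *rad52* at the peak windows failed in at least 1 fit that left out a replicate, and was −0.14 without Nrm1-SA replicate 1. With the first cycle alone, the difference of *ctp1* at the peak windows was 0.079 and did not pass (adjusted p = 0.388), nor did that of *rad52*. The peak windows of Nrm1-SA also differed from those of Nrm1-SD in 43.5% of all features. The synchrony genes, read after release only, were flatter in Nrm1-SA than in Nrm1-SD. Their part was not tested. No group held enough libraries to look for a library far from its group.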

How the results depend on the processing

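For single members, 1676 of 1736 values under the alternatives kept their direction and their side of the threshold, 44 lost the call, 16 gained one and 0 called values changed sign. With no minimum on the peak-to-trough the members with a wave numbered 7 for Nrm1, 6 for Nrm1-SA and 6 for Nrm1-SD, against 56.3%, 39.0% and 45.0% of all features. With all 78 libraries singly, 2 members changed in the trough in Nrm1-SA. Leaving out each replicate in turn, which leaves a lone sample assumed to vary like the others, the members with a smaller amplitude numbered 2 to 3 for Nrm1-SA (2 without Nrm1 replicate 2) and 2 to 3 for Nrm1-SD. Those changed in the trough in Nrm1-SA numbered 0 to 1 (0 without Nrm1 replicate 2), at the block in Nrm1-SD 1 to 2, in asynchronous Nrm1-SA 0 to 2 (0 without Nrm1 replicate 2) and in asynchronous Nrm1-SD 0 to 1, and those with a wave in Nrm1-SD 0 to 1. With the replicate block, the members with a smaller amplitude numbered 4 for Nrm1-SA and 3 for Nrm1-SD, and the other counts against Nrm1 and of waves kept their values. The block added a call for *rqh1* in the trough of Nrm1-SD against Nrm1-SA. Same-numbered libraries of different strains had median correlations of deviations between −0.02 and 0.06, and in asynchronous culture −0.11 between Nrm1 and either mutant, so the numbers were not taken as pairs. Within a strain, time points of a series had median correlations of 0.07 to 0.13, above 0.1 in 29 of 66 pairs for Nrm1, 34 of 55 for Nrm1-SA and 45 of 66 for Nrm1-SD; the fit treats them as independent. With the numbers of Nrm1 crossed, a pairing chosen after seeing the data, 1 member changed in asynchronous Nrm1-SA and 0 in Nrm1-SD. TMM scaling moved the median of all features by at most 0.02 on the log2 scale. Depth limits *rmi1* most, with as few as 36 reads behind a value.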
